A study of Mus musculus with 24 samples.

Results

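Short-term hematopoietic stem cells (ST-HSC) of aged mice were compared with multipotent progenitors (MPP) of aged mice, as ST-HSC minus MPP across all genes. The comparison was chosen by sample title and takes 4 aged ST-HSC and 4 aged MPP libraries, 8 of the 24 in the series. All mice were male C57BL/6, with no transgene, deletion or treatment named in the labels. Aged mice were 107 weeks old and the young mice used for reference were 12 weeks old, with 4 mice at each age. Bone marrow was enriched for cells carrying CD117 (Kit), and both populations were sorted as Lin-Sca1+Kit+. Within that gate ST-HSC were CD150-CD48- and MPP were CD150-CD48+. The third population of the series, long-term stem cells (LT-HSC, CD150+CD48-), entered the model only to estimate the spread between libraries. No label ties a library number to a mouse, so p-values measure the spread between these libraries.

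Blood stem cells are ordered by how long a cell can rebuild blood after transplantation. ST-HSC keep that ability for a limited time, and MPP, their descendants, have largely lost it, divide more often and feed the lymphoid and myeloid lineages. Stem cells of the marrow are known for slow division, low mitochondrial activity and low protein synthesis, and for transcription factors such as Mecom and Hlf that are lost as cells commit.

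Aged ST-HSC libraries held 7307151 to 12890638 counts and aged MPP libraries 10705210 to 11907421, with 15104 to 16103 and 15549 to 15825 genes detected. Rn45s, a ribosomal RNA precursor gene, took 6.29 to 10.4% of the counts of ST-HSC and 8.06 to 9.92% of those of MPP. On the first principal component of all 24 libraries (46.6% of the variance) aged ST-HSC lay between 6.3 and 15.3 and aged MPP between 73.8 and 78.4. Of 24421 genes in the table, 14205 passed the filter on low counts and were tested.

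The sort genes were read first, as a check of the labels, together with Flt3, which the gate given above does not name. Cd48, which encodes the surface protein that separates the gates, was at 14.5, 15, 12.3 and 16 CPM (read counts normalised to library size with TMM scaling) in aged ST-HSC libraries 1 to 4 and at 87.3, 83, 93 and 97.7 CPM in aged MPP. The groups did not overlap (log2 difference -2.64 ± 0.31 SE, adjusted p = 1.8e-06). Slamf1, which encodes CD150, was near 0 in both groups, with 27 counts in all 4 ST-HSC libraries together and 24 in MPP. Kit was at 1464, 1546, 1651 and 1585 CPM in ST-HSC and at 1092, 1059, 1115 and 896 in MPP, so every ST-HSC library was above every MPP library (0.59 ± 0.07, adjusted p = 1.4e-06). Ly6a, which encodes Sca1, was at 42 to 74.9 CPM in ST-HSC and 29.9 to 109 in MPP and was not called (-0.46, adjusted p = 0.27), but was without aged MPP library 3 (-0.73, adjusted p = 0.019). Flt3, a cytokine receptor used to mark lymphoid-primed MPP, was at 388, 376, 414 and 339 CPM in ST-HSC and 542, 509, 523 and 411 in MPP, with overlap (-0.39 ± 0.12, adjusted p = 0.018). Its call was lost without aged ST-HSC library 4 (0.057) and without aged MPP library 1 (0.059). Both populations carried the Kit and Sca1 transcripts of the gate, and Cd48 followed the labels in all 8 libraries.

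In all, 4244 of the 14205 tested genes differed (29.9%), 2196 higher in aged ST-HSC (15.5%) and 2048 lower (14.4%). By at least 2-fold, 832 were higher and 448 lower. The 4 values of one group were all above the 4 of the other for 3878 genes (27.3%). The median log2 difference of all tested genes was 0.02. With upper-quartile scaling 62.1% of the called genes were higher, against 51.7% with the scaling used here, so the balance of higher and lower calls depends on the scaling. In bulk samples such as these, a smaller share of cells of one kind and less RNA per cell cannot be told apart. Of the gene lists described next, 18 had no edgeR call in one direction. Over their 751 tested members 8 had an unadjusted p under 0.05 in that direction, and DESeq2 and limma-voom called 0.

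The genes of largest difference on the ST-HSC side were a mixed group of channels, enzymes and signaling genes. Trpc6, which encodes a cation channel (chromosome 9, 8543867 to 8680752), was at 50.4, 36.4, 90.2 and 50.8 CPM in aged ST-HSC and at 1.78, 5.24, 1.78 and 6.67 CPM in aged MPP, a log2 difference of 3.87 ± 0.38 (adjusted p = 4.2e-07). Tgm2, which encodes the cross-linking enzyme transglutaminase 2 (chromosome 2, 158116405 to 158146392), was at 125, 139, 115 and 118 CPM in ST-HSC and 5.73, 9.51, 3.37 and 26.3 in MPP (3.47 ± 0.38, adjusted p = 1.7e-06). MPP library 4 was the highest of its group for both genes, and without it the Tgm2 difference was 4.31. Grb10, an adaptor that restrains growth factor receptors, was at 60.4, 78.7, 39.2 and 40.4 CPM against 7.21, 5.96, 4.68 and 5.39 (3.23 ± 0.25, adjusted p = 7.1e-09). Every ST-HSC library exceeded every MPP library for all 12 genes taken by the rule, which asks for no overlap.

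Among transcription factor genes of this group, Plag1, a zinc finger factor of growth control (chromosome 4, 3898769 to 3938430), was at 24.3, 36.7, 33.2 and 29.4 CPM in ST-HSC and 4.44, 2.93, 5.81 and 1.08 in MPP (3.1 ± 0.29, adjusted p = 5.4e-08). Klf12, a Krüppel-like repressor, was at 26, 22.8, 30.3 and 28 CPM and 5.04, 4.36, 3.93 and 1.18 CPM (2.88 ± 0.22, adjusted p = 2.8e-10). Receptor and channel genes followed the same order of groups. These were Edar, a receptor of the TNF receptor family (3.38 ± 0.31), Lhcgr, the receptor for luteinizing hormone (3.05 ± 0.3), and Kcnd3, a voltage-gated potassium channel (3.33 ± 0.49). The remaining genes of the 12 were the vesicle linker Mlph (2.98 ± 0.39), the unconventional myosin Myo1d (2.95 ± 0.32), the cytoskeletal adaptor Obsl1 (2.89 ± 0.28) and Mamdc2 (2.77 ± 0.22).

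**Figure D1:**
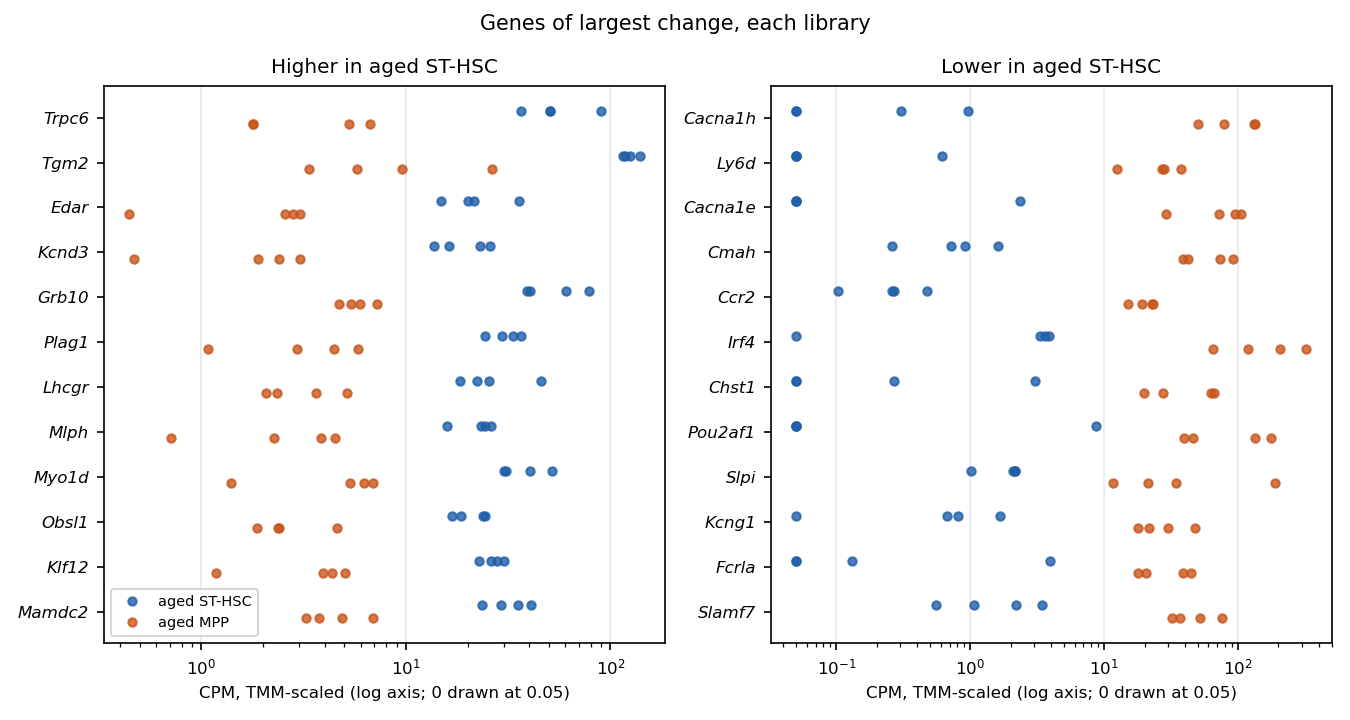
Levels of the 12 higher and 12 lower genes of largest change in each aged library, in TMM-scaled CPM on a log axis, where a value of 0 is drawn at 0.05. Blue points are the 4 aged ST-HSC libraries and orange points the 4 aged MPP libraries; the groups do not overlap for any of these genes, which the rule for choosing them required.

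Genes of the stem cell program were higher in aged ST-HSC almost throughout. Of 40 tested members 36 were higher and 2 lower, with a median log2 difference of 1.25. Over all genes 15.5% were higher and the median was 0.02. No overlap on the higher side was seen for 34 members, against 27.3% of all genes without overlap in either direction. Members of this and the other lists were chosen with earlier results of these data known. These counts describe the lists and are no test of them. Mecom, a zinc finger factor needed for stem cell maintenance (chromosome 3, 29951296 to 30509759), was at 179, 211, 231 and 185 CPM in ST-HSC and 49.3, 48.9, 61.5 and 48.5 in MPP (1.95 ± 0.09, adjusted p = 7.7e-14). Hlf, a PAR bZIP factor of stem cells (chromosome 11, 90336535 to 90390917), was at 1163, 1336, 1522 and 1117 CPM against 399, 334, 413 and 310.1 (1.82 ± 0.11, adjusted p = 2e-12). Every ST-HSC library was well above every MPP library for both factors. Prdm16, a chromatin regulator of stem cells, was at 79, 71.2, 74.2 and 68.9 CPM against 17.5, 12.3, 18 and 8.14 (2.39 ± 0.16, adjusted p = 3.1e-11).

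The surface protein genes Procr, Esam and Tek of the program had the same direction. Procr, which encodes the endothelial protein C receptor, a stem cell surface marker, was at 43.3, 66.3, 42.2 and 29.6 CPM in aged ST-HSC and 9.97, 9.07, 5.9 and 5.39 in aged MPP (2.57 ± 0.24, adjusted p = 2.3e-08). Esam, an endothelial cell adhesion molecule also carried by stem cells, was at 54.6, 62, 53.8 and 78.8 CPM against 14.1, 8.71, 11.4 and 17.9 (2.26 ± 0.16). The ranges of the 2 populations were well apart for both genes. Tek, the angiopoietin receptor Tie2, was at 13.8 to 22.1 CPM against 1.97 to 7.85 (2.25 ± 0.33), and the difference was 2.87 without aged MPP library 4. Lower members were Ly6e (-0.67) and Socs2, a feedback inhibitor of cytokine signaling, which was low in both groups and overlapped (0 to 0.874 CPM against 0.395 to 2.44, -1.56, adjusted p = 0.035). The Socs2 call was lost when any 1 library other than ST-HSC library 1 or MPP library 1 was left out (adjusted p = 0.053 to 0.11). As means, 39 of the 40 members were higher in aged LT-HSC than in aged ST-HSC, a description that was not tested here.

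Homeobox and megakaryocyte genes moved in the same direction. Of 24 tested Hox, Meis and Pbx genes 13 were higher and 1 lower (median 0.98), against 15.5% and 14.4% of all genes. Of the 24, 10 were free of overlap on the higher side, against 27.3% of all genes in either direction. Meis1, a cofactor of Hox proteins, was at 515, 543, 598 and 475 CPM in ST-HSC and 309.8, 259, 252 and 223 in MPP (1.03 ± 0.09, adjusted p = 2.4e-09). Hoxa10 was at 18 to 23.9 CPM against 7.68 to 11.7 (1.27 ± 0.18) and Hoxb3 at 8.74 to 16 against 4.34 to 7.31 (1.14 ± 0.2). Pknox1, a partner of the Pbx proteins, was the lower member (-0.29). Among 28 tested platelet and megakaryocyte genes 13 were higher and none lower (median 0.67), against 15.5% and 14.4% of all genes. Mmrn1, a platelet granule protein, was at 129, 149, 166 and 125 CPM against 26.1, 23.5, 38 and 25.6 (2.33 ± 0.13, adjusted p = 2.1e-12). Vwf, the platelet adhesion protein von Willebrand factor, was at 27.9 to 37.1 CPM against 7.9 to 14.9 (1.56 ± 0.25), and Gp1ba, a subunit of its platelet receptor, at 19.4 to 23.4 against 5.98 to 8 (1.62 ± 0.17). Of 9 tested mature megakaryocyte markers 2 were higher, Gp1ba and Gp5 (17 to 85 counts against 2 to 12), and none was lower. That count is near the share of all genes called higher, 15.5%. Others, such as Pf4 (0.32), Itga2b (0.34) and Ppbp (-0.98), were not called. The summed counts of 11 mature megakaryocyte markers were 0.0139 to 0.0168% of a library in ST-HSC and 0.00907 to 0.013% in MPP, without overlap. An exact permutation test, two-sided, gave an adjusted p of 0.057. The part of these markers in the result was not tested.

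Genes reported to rise with age in stem cells were higher in aged ST-HSC for part of the list. Of 34 members 21 were higher in aged ST-HSC and none lower (median 1.13), against 15.5% and 14.4% of all genes. Aldh1a1, a retinaldehyde dehydrogenase, was at 78.3, 60.5, 88.6 and 111 CPM against 11.9, 17, 8.43 and 20.3 (2.55 ± 0.34, adjusted p = 1.4e-05). Fhl1, a LIM domain protein, was at 20.8 to 26 CPM against 3.14 to 6.4 (2.38 ± 0.18). The 13 members not called included the adhesion receptor Selp (-0.08), the metallothioneins Mt1 (-1.6) and Mt2 (-2.18) and the chaperone Clu (-2.65).

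Genes of largest difference on the MPP side included several known from B and plasma cells. Irf4, a transcription factor of plasma cells, was at 118, 324, 64.5 and 205 CPM in aged MPP and 3.34, 3.63, 0 and 3.86 in aged ST-HSC (-5.98 ± 0.75, adjusted p = 8.5e-06). Pou2af1, a B cell coactivator, was at 46.2, 176, 39.5 and 134 CPM in MPP, and in ST-HSC it was at 0 in libraries 1 to 3 and at 8.64 in library 4 (-5.46 ± 1.06, adjusted p = 0.0011, and -12.84 without ST-HSC library 4). Slamf7, a surface receptor of plasma cells, was at 32, 52, 36.6 and 75.7 CPM in MPP and 0.556, 2.2, 1.07 and 3.46 in ST-HSC (-4.76 ± 0.5, adjusted p = 5.3e-07). Libraries 2 and 4 were the highest of the MPP group for these genes, and library 4 was the highest of the ST-HSC group.

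Voltage-gated channels and a sialic acid enzyme stood beside them. Cacna1h, a T-type calcium channel gene (chromosome 17, 25374285 to 25436334), was at 77.8, 133, 50.3 and 131 CPM in MPP and 0.953, 0, 0 and 0.305 in ST-HSC (-7.95 ± 1.03, adjusted p = 8.2e-05, and -9.54 without ST-HSC library 1). Cacna1e, another calcium channel gene, was at 71.8, 105, 28.7 and 94.1 CPM in MPP and was counted in ST-HSC library 4 alone, at 2.34 CPM (-6.91 ± 1.07, adjusted p = 0.00017, and -12.43 without that library). Cmah, which hydroxylates sialic acid, was at 42.6, 73, 38.9 and 92.1 CPM against 0.715, 0.259, 1.6 and 0.915 (-6.14 ± 0.77, adjusted p = 1.8e-05). For these 3 genes MPP libraries 2 and 4 were again above libraries 1 and 3. Kcng1, a potassium channel subunit, had -5.09 ± 0.68 (-5.82 without ST-HSC library 1). Fitted differences against groups with so few counts depend on the prior count of the model and are not bounds.

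Other genes of the 12 were Ccr2, a chemokine receptor of monocytes and their precursors (15.1 to 23.1 CPM in MPP and 0.102 to 0.477 in ST-HSC, -6.06 ± 1.09, adjusted p = 0.00068), and Ly6d, which marks B cell and dendritic cell precursors (12.5 to 37.7 CPM in MPP and 6 counts in all of ST-HSC, -7.25 ± 1.25). Slpi, a secreted protease inhibitor, was at 11.6, 34.2, 21.3 and 188 CPM in MPP and 1.02 to 2.14 in ST-HSC (-5.11 ± 1.05, adjusted p = 0.0012). MPP library 4 held most of it, and without that library the difference was -3.6. Chst1, a sulfotransferase (-5.67 ± 1.1), and Fcrla, a B cell Fc receptor-like protein (-4.84 ± 1.05), had adjusted p = 0.098 and 0.068 with DESeq2. ST-HSC library 4 held nearly all the ST-HSC counts of Chst1, Fcrla and Ly6d, and without it the differences were -8.99, -9.25 and -10.92.

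Markers of plasma cells moved with these genes, of which Irf4 is itself on the marker list. The 9 plasma cell markers in the table took 0.258, 0.39, 0.205 and 0.933% of the counts of aged MPP libraries 1 to 4 and 0.00936, 0.0103, 0.0092 and 0.0432% of those of aged ST-HSC. The list names 19 markers, but its immunoglobulin chain genes, such as Igkc and Ighm, had no entry to count. The share leaves them out. In young mice the share was at most 0.0101% in ST-HSC and 0.0374% in MPP. Every aged MPP library was above every aged ST-HSC library (exact permutation test, two-sided, p = 0.0286, the smallest that 4 against 4 allows, and 0.057 adjusted over 10 marker lists). Jchain, the joining chain of secreted antibodies, made up most of it in MPP, with 23536, 37007, 19156 and 92394 counts in MPP and 9, 10, 8 and 3227 in ST-HSC. None of the 9 markers was at 0 in all libraries of either group. B cell markers, with Fcrla among them, took 0.0261 to 0.0405% in MPP and 0.0155 to 0.0228% in ST-HSC, without overlap (adjusted p = 0.057). The part of these cells in the lower genes was not tested. Without MPP libraries 2 and 4, which held the most plasma cell marker counts, Irf4 had -5.05, Pou2af1 -4.29 and Chst1 -4.81 (adjusted p = 0.00064, 0.03 and 0.032), and Slpi was no longer called (-3.16, adjusted p = 0.055).

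Lymphoid priming genes were lower in aged ST-HSC. Of 32 tested members 24 were lower and 2 higher, with a median log2 difference of -1.81, against 14.4% lower and a median of 0.02 over all genes. Dntt, the terminal transferase of early lymphoid cells (chromosome 19, 41029275 to 41059525), was at 62, 45.6, 55.7 and 49.7 CPM in ST-HSC and 363, 535, 252 and 424 in MPP (-2.88 ± 0.31, adjusted p = 4.4e-06). Satb1, a chromatin organizer of lymphoid priming, was at 202, 185, 282 and 174 CPM against 504, 517, 459.9 and 413 (-1.17 ± 0.14, adjusted p = 1.2e-06). Both had all MPP libraries above all ST-HSC libraries.

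Notch1, the receptor that directs T cell fate, was at 314 to 411 CPM in ST-HSC and 457 to 733 in MPP (-0.75 ± 0.11, adjusted p = 1.1e-05), and Il12a, a cytokine subunit, at 23.1 to 29.1 against 55.5 to 67.2 (-1.28 ± 0.17). Il7r, the interleukin 7 receptor of lymphoid progenitors, was at 0.159, 0, 1.6 and 6.3 CPM in ST-HSC and 7.6, 31, 8.62 and 111 in MPP (-4.27 ± 1.01, adjusted p = 0.0044). MPP library 4 was far above the others, and the Il7r difference was -2.95 without it and -6.19 without ST-HSC library 4. The Il7r call was lost with only the 2 groups fitted (adjusted p = 0.082), without ST-HSC libraries 2 and 3 (-3.66, 0.055) and without MPP libraries 2 and 4 (-2.01, 0.16). The higher members were Bcl11a, a factor that lymphoid cells and stem cells share (325 to 393 CPM against 236 to 245, 0.56 ± 0.08), and Ltb (1.21). Ikaros family members differed in size, with Ikzf1 at -0.25 and Ikzf3 at -4.12, both called. Several members (Cd79a, Cd79b, Ebf1, Pax5) are also B cell markers. Without MPP libraries 2 and 4 together 15 members were lower.

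Some myeloid priming genes were lower in aged ST-HSC. Of 32 tested members 8 were lower and none higher (median -0.67), against 14.4% lower and 15.5% higher over all genes. Irf8, the factor of monocyte and dendritic cell fate, was at 13.7, 13.7, 8.81 and 9.56 CPM in aged ST-HSC and 203, 216, 192 and 141 in aged MPP (-4.03 ± 0.35, adjusted p = 3.7e-08). Cebpa, the factor that opens granulocyte and monocyte fate, was at 33.5, 16.7, 37.1 and 19.4 CPM against 77.4, 68.4, 88.9 and 84.7 (-1.58 ± 0.28, adjusted p = 0.00022). Both had no overlap. Receptor genes Il6ra (45.4 to 66 CPM against 96.5 to 115, -0.91 ± 0.12) and Csf2rb (56.3 to 92.5 against 112 to 182, -0.97 ± 0.15) were lower too, and Spi1, the myeloid and B cell factor PU.1, had -0.54 ± 0.15 (adjusted p = 0.0073). Csf2rb resembles Csf2rb2, so shared reads are possible. The granule gene Mpo, myeloperoxidase, was at 2287, 842, 1631 and 105 CPM in ST-HSC and 3118, 1339, 4401 and 3763 in MPP. Its groups overlapped and it was not called (-1.37 ± 1.21, adjusted p = 0.43). Elane (-0.38) and Prtn3 (-0.41), granule proteases, were not called either. Monocyte markers took 0.0199 to 0.111% of the counts in ST-HSC and 0.041 to 0.135% in MPP, and mature granulocyte markers 0.00308 to 0.174% and 0.00317 to 0.0367%, with overlap in both lists.

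Erythroid priming genes pointed the other way. Of 22 tested members 10 were higher in aged ST-HSC and none lower (median 1.84), against 15.5% and 14.4% of all genes. Without ST-HSC library 1, 6 were higher. Car2, a carbonic anhydrase, was at 814, 1029.8, 744 and 976 CPM in ST-HSC and 305, 441, 386 and 366 in MPP (1.25 ± 0.11, adjusted p = 1.8e-09). Zfpm1, the cofactor of GATA1, was at 163, 161, 128 and 143 CPM against 67, 79.8, 60.5 and 56 (1.18 ± 0.12, adjusted p = 2.2e-08). Both were separated between the groups. Gata1 itself varied widely, at 25, 8.3, 2.8 and 29.6 CPM in ST-HSC and 3.75, 5.16, 1.31 and 2.84 in MPP, and was not called (2.33 ± 0.91, adjusted p = 0.059, and 0.036 without ST-HSC library 3). Klf1, the erythroid Krüppel-like factor, was at 20.3, 12.7, 1.47 and 27.8 CPM against 0.592, 4.98, 2.62 and 0.196 (2.88 ± 1.22, adjusted p = 0.084). ST-HSC library 3 was the lowest of its group for both factors. Erythroblast markers took 0.0299, 0.0887, 0.0105 and 0.0624% of the counts of ST-HSC libraries 1 to 4 and 0.0103, 0.0271, 0.0429 and 0.00923% of those of MPP, and their part in the result was not tested. The 6 of 18 markers at 0 in each group were the hemoglobin genes, also in ST-HSC library 2, where Slc4a1 had 2990 counts. The share thus holds no hemoglobin counts.

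**Figure D2:**
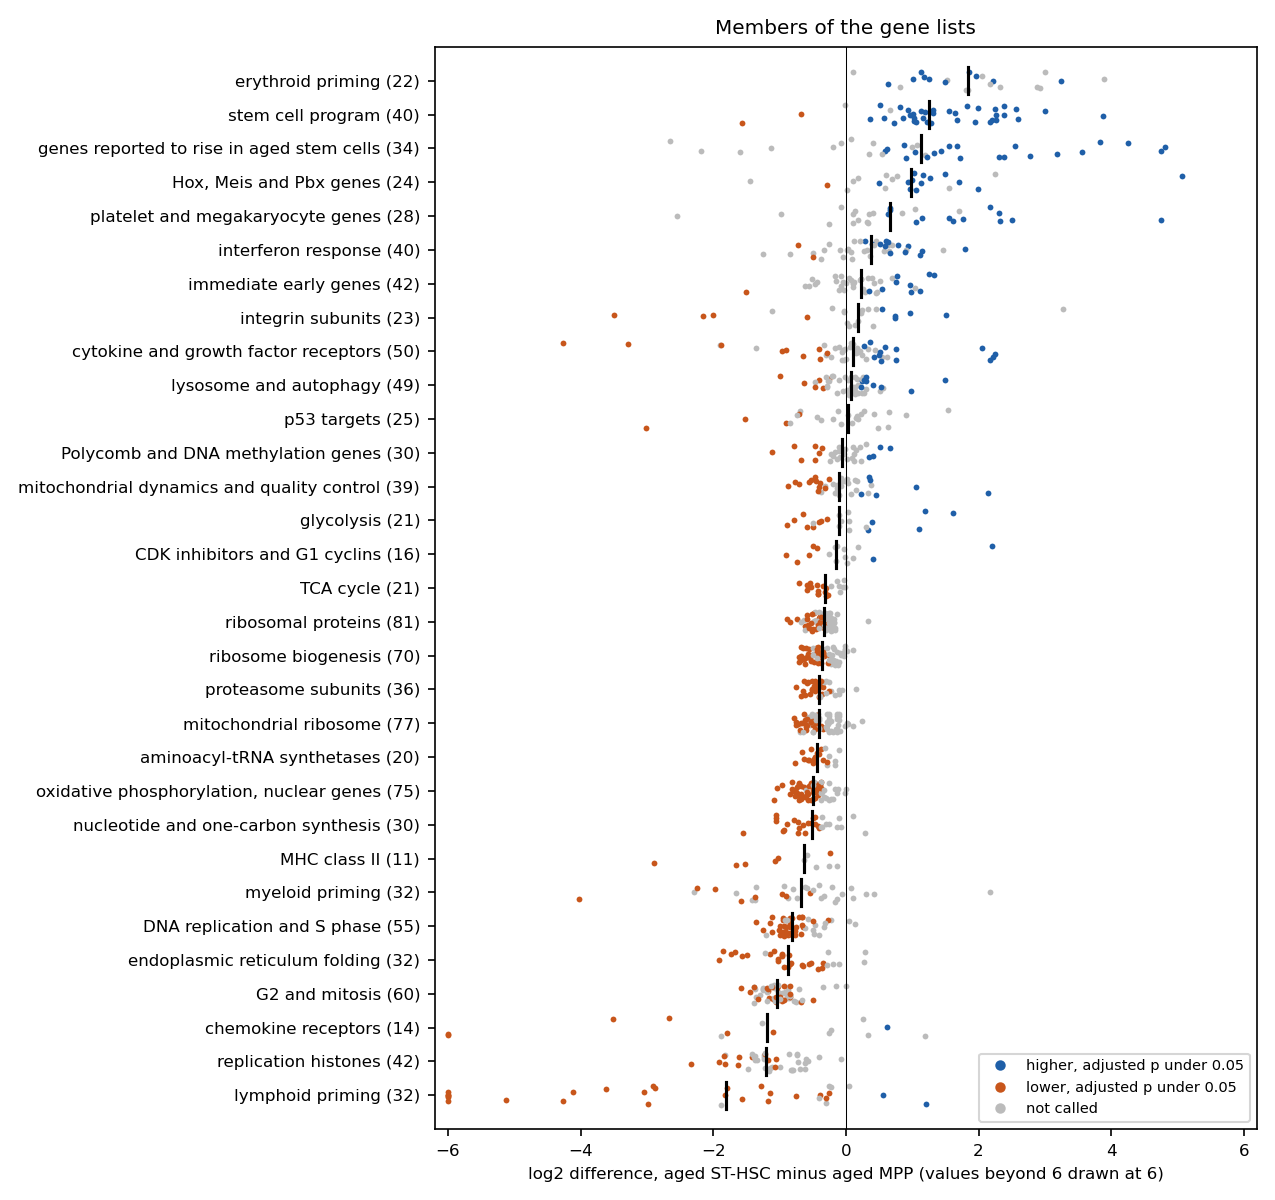
Log2 difference of each tested member of the gene lists other than the sort genes and the cell type markers, aged ST-HSC minus aged MPP, with the number of tested members in parentheses and values beyond 6 drawn at 6. Black bars are list medians, which run from 1.84 for erythroid priming and 1.25 for the stem cell program down to -1.81 for lymphoid priming; blue points are higher, orange points lower and grey points not called.

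Cell cycle genes were lower in aged ST-HSC. Of 55 tested genes of DNA replication and S phase 40 were lower and none higher (median -0.82), against 14.4% lower over all genes. The groups did not overlap for 42 of these genes, against 27.3% of all genes in either direction. Many genes of this list are switched on by E2F factors before S phase, whereas many mitotic genes carry a cell cycle homology region (CHR) bound by the DREAM and MuvB complexes. Promoters of 2 genes of each kind are shown because the lists differ in these motifs. Capitals mark the matches of both motifs, on either strand, in the 180 bases before the RefSeq start site (GRCm38.p6).
Mcm6, E2F, chr1:128359706-128359885, minus strand: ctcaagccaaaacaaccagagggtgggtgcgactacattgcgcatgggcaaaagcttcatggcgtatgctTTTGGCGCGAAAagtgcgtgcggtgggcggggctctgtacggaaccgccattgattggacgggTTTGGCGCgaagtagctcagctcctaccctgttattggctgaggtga
Mcm7, E2F, chr5:138171884-138172063, minus strand: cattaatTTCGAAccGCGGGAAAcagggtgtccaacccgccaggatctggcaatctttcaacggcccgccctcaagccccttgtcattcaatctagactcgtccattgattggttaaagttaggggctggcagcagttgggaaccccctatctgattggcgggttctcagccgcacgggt
Cdk1, CHR, chr10:69352913-69353092, minus strand: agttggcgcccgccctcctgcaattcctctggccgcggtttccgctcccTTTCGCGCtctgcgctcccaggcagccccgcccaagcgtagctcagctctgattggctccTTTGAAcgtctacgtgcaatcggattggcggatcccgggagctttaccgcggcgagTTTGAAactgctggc
Smc2, CHR, chr4:52439041-52439220, plus strand: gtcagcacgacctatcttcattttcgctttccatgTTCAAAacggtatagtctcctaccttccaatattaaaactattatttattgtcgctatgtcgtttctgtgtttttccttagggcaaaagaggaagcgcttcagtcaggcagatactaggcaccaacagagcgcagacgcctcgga
The E2F search used TTTCCCGC, TTTCGCGC, TTTGCCGC and TTTGGCGC on both strands of 300 bases, from 250 before to 50 after the start. It matched 15 of 42 S phase promoters with a sequence (35.7%), 3 of 48 of the G2 and mitosis list (6.25%) and 3.94% of tested genes. Among S phase genes called lower the share was 30% (9 of 30). In Mcm6 the first 2 matches, at positions -110 and -106 from the start, overlap on opposite strands, and the third is at -47. The CHR search, TTTGAA or TTCGAA, matched 36 of 48 promoters of the G2 and mitosis list (75%), 7 of 42 of the S phase list (16.7%) and 14% of tested genes, and 11 of 17 of the mitotic genes called lower (64.7%). The Cdk1 matches lie at -71 and -15, and the Smc2 match shown at -145. Cdk1 also holds an E2F match at -131, and Mcm7 a CHR match at -173, before its E2F match at -165. The Mcm7 stretch precedes the start site used here but lies inside the gene as listed (chromosome 5, 138164583 to 138172111). Matches describe the letters in these windows and are no test of binding.

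Among replication genes, subunits of the helicase that licenses origins were lower. Mcm3 was at 254, 244, 199 and 316 CPM in aged ST-HSC and 460.2, 399, 459 and 446 in aged MPP (-0.8 ± 0.12, adjusted p = 1.6e-05). Mcm6 (chromosome 1, 128331575 to 128359705) was at 272, 241, 192 and 342 CPM against 486, 439, 538 and 455 (-0.87 ± 0.15, adjusted p = 1e-04), and Mcm7 at 178, 136, 120.3 and 178 against 305, 265, 289 and 255 (-0.86 ± 0.16). In ST-HSC library 3 was the lowest for each of them, and no ST-HSC library reached the MPP range. Polymerase and primase genes had similar values, Pold2 at 34.4 to 50.7 CPM against 61.2 to 87.3 (-0.75 ± 0.13) and Prim2 at 19.1 to 28.7 against 40.6 to 57.6 (-0.94 ± 0.17). Rfc5, a clamp loader subunit, had -0.76 ± 0.13, and Pcna, the clamp, -0.49 ± 0.14 (84.1 to 112 CPM against 129.7 to 170.4). The cyclin E genes Ccne1 (0.05) and Ccne2 (-0.48) were not called. Without ST-HSC libraries 2 and 3 together, 15 members were lower.

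For G2 and mitosis 23 of 60 tested genes were lower and none higher (median -1.04), against 14.4% lower over all genes. In 54 of the 60 all MPP values were above all ST-HSC values, against 27.3% of all genes without overlap in either direction. Smc2, a condensin subunit, was at 43.9, 62.9, 45.4 and 59.7 CPM in ST-HSC and 82.8, 107, 110 and 77.6 in MPP (-0.84 ± 0.18, adjusted p = 0.0013). Mad2l1, a spindle checkpoint protein, was at 18.4 to 29 CPM against 36 to 49.3 (-0.85 ± 0.19), and Kif20b, a mitotic kinesin, at 21.8 to 40.1 against 46.3 to 65.5 (-1.04 ± 0.26). Cdk1, the mitotic kinase, was at 56.6, 59.1, 28.6 and 60.8 CPM against 112, 129.9, 119 and 104 (-1.18 ± 0.42, adjusted p = 0.043). Its groups did not overlap, yet the adjusted p ran from 0.055 to 0.12 when any 1 of the 8 libraries was left out. Mki67, the proliferation antigen, was at 463 to 663 CPM against 681 to 1075 and was not called (-0.66 ± 0.34, adjusted p = 0.16), though it was with only the 2 groups fitted (0.0095) and with limma-voom (0.03). The count of mitotic genes varied with the fit, the scaling and the libraries used. It was 55 when only these 2 groups were fitted and 55 with limma-voom, 15 with upper-quartile scaling, and between 8 (without ST-HSC library 3) and 19 when 1 library was left out. It was 12 without ST-HSC library 1, 14 without ST-HSC library 2 and 12 without MPP library 1, 2 or 3.

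Replication histones followed the same direction with wide errors. Of 42 tested 11 were lower and none higher (median -1.2), against 14.4% lower over all genes. Hist1h4d was at 25.3, 24.5, 11.7 and 28.2 CPM in ST-HSC and 42.4, 41.6, 46.3 and 57.8 in MPP (-1.06 ± 0.28, adjusted p = 0.0065). These genes are near-identical copies of one another, so counts of single members are uncertain. The count was 3 without ST-HSC library 3, 6 without MPP library 2 and 7 without MPP library 4. Regulators of cycle entry were mixed, with 2 of 16 higher and 5 lower, against 15.5% and 14.4% of all genes. Cdkn1c, the inhibitor p57 of quiescent stem cells, was at 6.2, 5.45, 5.47 and 5.59 CPM in ST-HSC and 1.38, 1.69, 0.937 and 0.883 in MPP (2.2 ± 0.25, adjusted p = 1.9e-07). Cdkn1a, the inhibitor p21, had the opposite direction, at 25.1, 33.8, 27.4 and 28.1 CPM against 49.2, 58.5, 59.2 and 47.1 (-0.91 ± 0.24, adjusted p = 0.0065). The kinases of G1 were lower in ST-HSC, Cdk4 at 156 to 232 CPM against 326 to 376 (-0.73 ± 0.13) and Cdk6 at 547 to 651 against 751 to 909 (-0.44 ± 0.11). Of 30 Polycomb and DNA methylation genes 4 were higher and 7 lower (median -0.06), against 15.5% and 14.4% of all genes. Dnmt1, which keeps DNA methylation through replication, was lower at 371 to 529 CPM against 709.8 to 911 (-0.79 ± 0.16), as was the Polycomb methyltransferase Ezh2 at 63.3 to 78.4 against 107 to 120 (-0.67 ± 0.15). Tet1, which oxidizes methylated cytosine, was higher (191 to 245 CPM against 145 to 172, 0.52 ± 0.09).

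**Figure D3:**
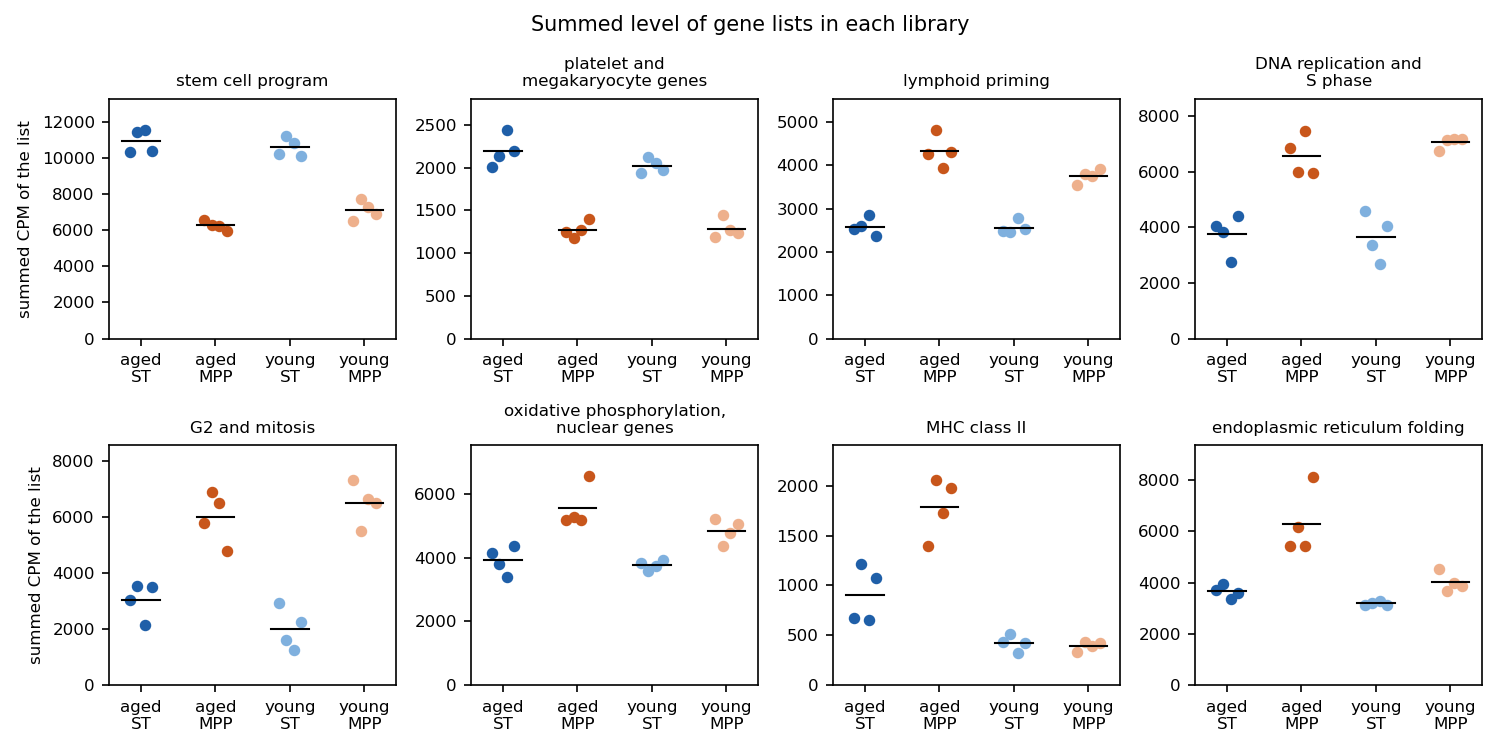
Summed CPM of the tested members of 8 gene lists in each library, by age and population, with bars at the group means and each axis starting at 0. For the stem cell program the aged ST-HSC libraries lie between 10339 and 11571 and the aged MPP libraries between 5975 and 6539; for G2 and mitosis they lie between 2131 and 3550.1 and between 4792 and 6885.

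Genes of mitochondrial respiration were lower in aged ST-HSC by small amounts. Of 75 tested nuclear genes of oxidative phosphorylation 52 were lower and none higher (median -0.5), against 14.4% lower over all genes. Without MPP library 4, 34 were lower. Ndufa4, a subunit of the respiratory chain, was at 129.6, 133, 121 and 159 CPM in ST-HSC and 254, 269, 253 and 338 in MPP (-1.04 ± 0.09, adjusted p = 5.6e-09). Atp5a1, of the ATP synthase, was at 547, 521, 443 and 587 CPM against 689, 712, 695 and 835 (-0.48 ± 0.08, adjusted p = 4.4e-05). The groups were apart for both, with MPP library 4 the highest. Of 21 genes of the TCA cycle 14 were lower and none higher (median -0.32), among them Idh2 (163 to 202 CPM against 256 to 295, -0.59 ± 0.09) and Sdhb (45 to 68.2 against 79.8 to 103, -0.71 ± 0.12). Mitochondrially encoded genes were not analysed here.

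Glycolysis genes did not move together, with 5 of 21 higher and 8 lower (median -0.11), against 15.5% and 14.4% of all genes. Isoforms went opposite ways. Ldhb, a lactate dehydrogenase subunit, was at 35.4, 39.9, 32.7 and 37.2 CPM in ST-HSC and 16.8, 11.1, 16.6 and 18.8 in MPP (1.2 ± 0.13, adjusted p = 7.7e-08), and Ldha, the other main subunit, at 391, 344, 380 and 456 against 565, 541, 619.9 and 631 (-0.58 ± 0.11, adjusted p = 0.00017). The glucose transporter Slc2a3 was higher (166, 219, 202 and 167 CPM against 84.9, 84.2, 82.9 and 97.6, 1.11 ± 0.1). Pgk1, phosphoglycerate kinase, was lower (24.4 to 37.2 CPM against 49.8 to 60.8, -0.89 ± 0.13). Ppargc1a, a coactivator of mitochondrial biogenesis, was higher at low levels (6.04, 7.91, 10.5 and 3.15 CPM against 1.88, 2.49, 1.31 and 0.49, 2.14 ± 0.46, adjusted p = 8e-04), opposite to the respiratory genes.

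Genes of protein and nucleotide production were lower in aged ST-HSC, and no member of these 6 lists was called higher. Over all genes 14.4% were lower. Lower members were 35 of 70 in ribosome biogenesis (median -0.36), 33 of 81 ribosomal proteins (-0.33), 14 of 20 aminoacyl-tRNA synthetases (-0.43), 30 of 77 mitochondrial ribosomal proteins (-0.41), 23 of 36 proteasome subunits (-0.4) and 20 of 30 enzymes of nucleotide and one-carbon synthesis (-0.51). Npm1, a nucleolar chaperone, was at 85.8, 69.4, 86.9 and 82.7 CPM in ST-HSC and 124, 125, 139 and 145 in MPP (-0.71 ± 0.1, adjusted p = 5.8e-06). Psat1, of serine synthesis, was at 77.2, 76.8, 59.5 and 78.2 CPM against 142, 132, 166 and 163 (-1.05 ± 0.12, adjusted p = 3.6e-07), and Shmt2, which passes one-carbon units from serine in mitochondria, at 73.9, 55.5, 53.9 and 74.1 against 121, 119, 118 and 142 (-0.95 ± 0.12). Each of these genes had its highest ST-HSC value below its lowest MPP value. Nme1, a nucleoside diphosphate kinase, had -1.06 ± 0.12, and Mars, the methionyl-tRNA synthetase, -0.76 ± 0.11. The ribosomal protein count was 21 without ST-HSC library 3 and 20 without MPP library 4, and the mitochondrial ribosome count 15 and 14.

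Genes that fold and export proteins in the endoplasmic reticulum were lower in aged ST-HSC. Of 32 tested members 25 were lower and none higher, with a median of -0.87, against 14.4% lower over all genes. The groups did not overlap for 24 members, against 27.3% of all genes in either direction. The count of 25 lay between 23 and 26 when 1 library was left out. Several members are targets of the unfolded protein response through an endoplasmic reticulum stress element (ERSE), in which CCAAT and CCACG stand 9 bases apart. Promoters of Pdia6 and Creld2 are shown because both hold this element, which is rare elsewhere. Capitals mark its ends in the 180 bases before the RefSeq start site (GRCm38.p6).
Pdia6, ERSE, chr12:17266409-17266588, plus strand: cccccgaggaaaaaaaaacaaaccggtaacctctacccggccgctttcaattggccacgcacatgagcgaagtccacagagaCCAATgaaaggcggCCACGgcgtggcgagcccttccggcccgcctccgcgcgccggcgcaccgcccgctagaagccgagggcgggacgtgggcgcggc
Creld2, ERSE, chr15:88819466-88819645, plus strand: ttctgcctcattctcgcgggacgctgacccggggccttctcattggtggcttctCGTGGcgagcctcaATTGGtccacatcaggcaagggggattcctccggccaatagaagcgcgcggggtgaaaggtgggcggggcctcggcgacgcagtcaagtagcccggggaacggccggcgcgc
The element was found on either strand in 8 of 27 promoters of the list (29.6%), in 7 of the 20 called lower (35%) and in 17 promoters of tested genes (0.16%). No promoter of the S phase or the G2 and mitosis list held it. It begins at -98 in Pdia6 and at -126, on the opposite strand, in Creld2.

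Xbp1, the transcription factor of the secretory program (chromosome 11, 5520641 to 5525993), was at 67.4, 75.8, 67.1 and 66.2 CPM in aged ST-HSC and 141, 236, 136 and 266 in aged MPP (-1.49 ± 0.17, adjusted p = 6.3e-07). Creld2 was at 16.1, 24.9, 23.9 and 27.4 CPM against 52.1, 79.8, 61.2 and 138 (-1.85 ± 0.23, adjusted p = 2.1e-06), and Pdia6, a disulfide isomerase, at 83.2, 86.1, 59.1 and 69.2 against 139, 127, 133 and 183 (-0.96 ± 0.13, adjusted p = 3.3e-06). MPP library 4 was the highest for all 3, and no value of one group entered the range of the other. Edem1, which sends misfolded proteins to degradation, was at 88.6 to 115 CPM against 205 to 440.4 (-1.57 ± 0.18), Hyou1, a chaperone, at 104 to 172 against 235 to 334 (-1.08 ± 0.14), and Sdf2l1 at 14.1 to 29.6 against 50.3 to 121 (-1.91 ± 0.25). The chaperone Hspa5 (BiP) was at 403, 386, 226 and 289.6 CPM against 473, 483, 406 and 562 (-0.56 ± 0.17, adjusted p = 0.015). Its call was lost without ST-HSC library 3 (adjusted p = 0.059) and without MPP library 4 (0.057). Atf4 (0.29) and Ddit3 (0.27), of the stress branch led by PERK, were not called. The plasma cell marker share given above, 0.205 to 0.933% in MPP and 0.0092 to 0.0432% in ST-HSC, moved with these genes, and its part in the result was not tested. Xbp1 is itself on that marker list.

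**Figure D4:**
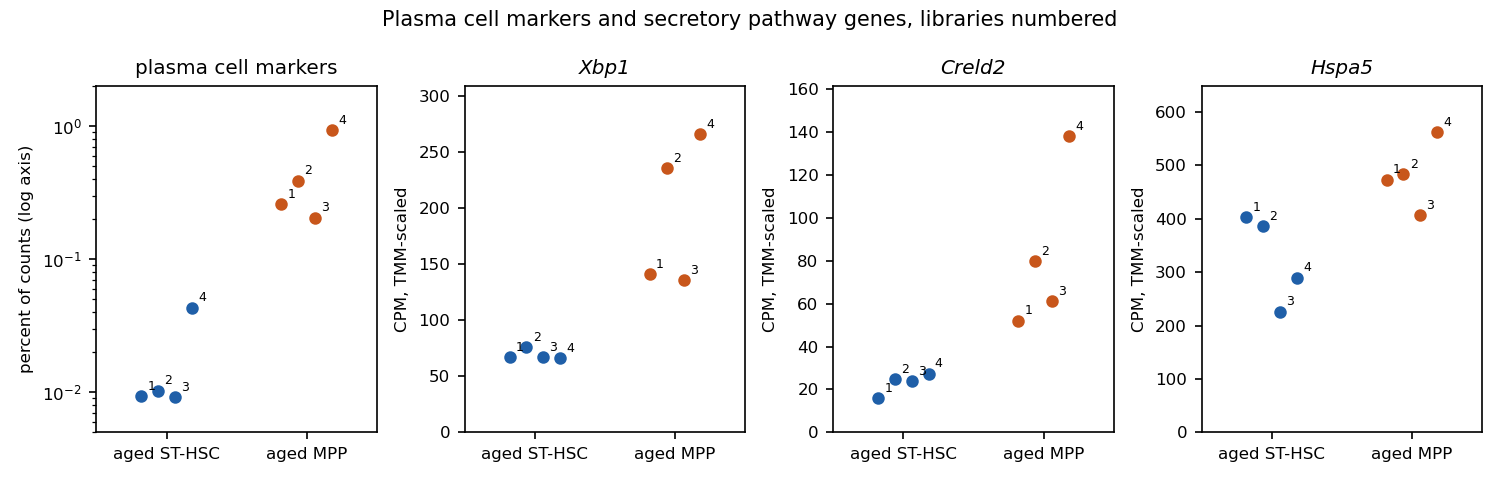
Share of counts from 9 plasma cell markers (percent, log axis) and CPM of Xbp1, Creld2 and Hspa5 (axes from 0) in each aged library, with points numbered by library. MPP library 4 is the highest in each panel, at 0.933% of counts, 266 CPM, 138 CPM and 562 CPM.

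Genes of antigen presentation, interferon response and early response gave smaller groups of calls. Of 11 genes of MHC class II presentation 6 were lower in aged ST-HSC and none higher (median -0.63), against 14.4% lower over all genes. Cd74, the invariant chain, was at 162, 394, 179.8 and 458 CPM in ST-HSC and 580.1, 986, 715 and 1131 in MPP (-1.52 ± 0.41, adjusted p = 0.009). H2-Ab1, a class II beta chain, was at 73.9, 134, 58.1 and 99.5 CPM against 151, 228, 221 and 169 (-1.07 ± 0.27, adjusted p = 0.0044), and H2-Aa, the alpha chain, was not called (-0.63 ± 0.29, adjusted p = 0.11, and 0.014 without ST-HSC library 2). H2 genes resemble one another, so shared reads are possible. The count of 6 became 3 without ST-HSC library 3, ST-HSC library 4 or MPP library 2.

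Interferon response genes were higher for 13 of 40 members and lower for 2 (median 0.38), against 15.5% and 14.4% of all genes. The higher ones included the RNA sensors Ifih1 (49.2 to 61.8 CPM against 25.1 to 33, 0.93 ± 0.12) and Ddx58 (148 to 194 against 88.4 to 117, 0.66 ± 0.11). Psmb8, an immunoproteasome subunit, was lower (80 to 126 CPM against 137 to 192, -0.72 ± 0.12), and so was its partner Psmb9 (-0.49). Immediate early genes had 9 of 42 higher and 1 lower, against 15.5% and 14.4% of all genes. Their median was 0.23, with 13 of the 42 below 0. Nr4a2, an orphan nuclear receptor, was at 91.2, 110.1, 104 and 114 CPM in ST-HSC and 28.7, 49.9, 36 and 52 in MPP (1.33 ± 0.21, adjusted p = 7.3e-05). Egr1, a zinc finger factor of stem cell quiescence, was at 2059, 2302, 1291 and 1348 CPM against 964, 967, 766 and 852 (0.98 ± 0.26, adjusted p = 0.0071). Fos (0.1) and Jun (0.1) were not called. Of 25 p53 target genes 4 were lower and none higher (median 0.03), a share close to the background. Trp53inp1 was at 85.4, 90.5, 113 and 108 CPM against 193, 258, 168 and 519 (-1.52 ± 0.27, adjusted p = 0.00032), with MPP library 4 far above the rest, and Bax (-0.71 ± 0.2) was not called without that library (adjusted p = 0.087).

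Single receptors and adhesion molecules differed in either direction. Of 50 tested cytokine and growth factor receptors 13 were higher and 9 lower, against 15.5% and 14.4% of all genes. Tgfbr3, a TGF-beta coreceptor, was at 98.3, 113, 98.2 and 108 CPM in ST-HSC and 36, 29.9, 13.9 and 20.7 in MPP (2.05 ± 0.21, adjusted p = 3.8e-07), and Eng, endoglin, at 287 to 335 against 160 to 210.2 (0.76 ± 0.09). Cxcr4, the receptor that holds progenitors in the marrow, was lower, at 131, 154, 110.2 and 159.7 CPM against 285, 291, 305 and 310.4 (-1.1 ± 0.19, adjusted p = 0.00013). Ranges of ST-HSC and MPP were apart for these 3 receptors. Among 23 integrin subunits 5 were higher and 4 lower, near the shares of all genes (15.5% higher and 14.4% lower). Itgal, the alpha chain of LFA-1 on leukocytes, was at 153, 81.8, 131 and 75.1 CPM against 459.7, 457, 389 and 461 (-2 ± 0.29, adjusted p = 4.5e-05). Itga6, a laminin receptor chain, was at 217 to 259 CPM against 115 to 162 (0.74 ± 0.09), and Itga2, a collagen receptor chain, at 26 to 39.9 against 8.49 to 13.1 (1.51 ± 0.24). Lysosome and autophagy genes had 9 of 49 higher and 6 lower (median 0.08), also near those shares, with the cathepsins Ctsf at 1.49 ± 0.2 and Ctsz at -1 ± 0.14. The count of 9 was 5 without ST-HSC library 3 or MPP library 3.

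The same contrast in young mice, which shares no library with the aged one, gave 1495 genes higher in ST-HSC (10.5%) and 1434 lower (10.1%). In young mice 33 of the 40 stem cell program genes were higher, 19 of 32 lymphoid genes lower, 44 of 55 S phase genes lower and 55 of 60 mitotic genes lower. Medians were 0.94, -1.48, -0.92 and -1.86. For endoplasmic reticulum folding the young count was 11 of 32 and the median -0.31, for oxidative phosphorylation 25 of 75 and -0.35, and for MHC class II 1 lower and 1 higher of 11 and 0.21. A call at one age and not at the other is no test of a difference between ages, so the difference itself was tested.

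The population difference depended on age for 66 of the 14205 genes (0.465%), 26 of them with a larger ST-HSC minus MPP value in aged mice and 40 with a smaller one. Stem cell regulators were among the 26. Mecom differed by 1.95 ± 0.09 in aged and 1.29 in young mice (age difference 0.66, adjusted p = 0.016), Hlf by 1.82 and 1.08 (0.74, adjusted p = 0.016) and Prdm16 by 2.39 and 1.45 (0.95, adjusted p = 0.036). In ST-HSC Mecom was at 179 to 231 CPM in aged and 184 to 198 in young mice. In MPP it was at 48.5 to 61.5 and 71.3 to 92.6. Hlf was at 1117 to 1522 and 1351 to 1546 CPM in ST-HSC, and at 310.1 to 413 and 589.7 to 769 in MPP. Prdm16 was at 68.9 to 79 and 75.6 to 102 CPM, and at 8.14 to 18 and 29.2 to 38.1. For all 3 genes the ranges of the ages overlapped in ST-HSC and were lower in aged MPP, without a test of either. Plag1 (1.78, adjusted p = 0.028), Klf12 (1.44, adjusted p = 0.016), Fhl1 (1.25, adjusted p = 0.02) and Mmrn1 (0.86, adjusted p = 0.021) had the same sign. Ranges of Plag1 and Klf12 were lower in aged than young mice in both populations. In ST-HSC Plag1 was at 24.3 to 36.7 CPM against 63.7 to 86, and Klf12 at 22.8 to 30.3 against 45.5 to 51.8. Fhl1 was higher in aged ST-HSC (20.8 to 26 CPM against 10.5 to 14.1). None of these age differences, from Mecom to Mmrn1, was followed singly under other fits. The 26 became 8 with limma-voom and 13 in a fit of these 4 groups alone. In the stem cell program 32 of 40 members had a positive age difference, and 6 passed the test, 5 of them positive. The negative one, Socs2, differed by -1.56 in aged and 1.68 in young mice (age difference -3.24, adjusted p = 0.031). That call was lost with limma-voom (adjusted p = 0.2), in a fit of these 4 groups alone (0.13) and when any of 11 single libraries was left out (0.051 to 0.071). Dnajc6, an uncoating cochaperone, was higher in aged ST-HSC (0.34) and lower in young ST-HSC (-0.4), with an age difference of 0.74 (adjusted p = 0.016). That call was lost without aged MPP libraries 2 and 4 together (adjusted p = 0.088).

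Secretory genes stood among the 40. Xbp1 differed by -1.49 in aged mice and 0.17 in young mice (age difference -1.67, adjusted p = 0.0017). Txndc5, a disulfide isomerase of the endoplasmic reticulum, was at 75.9, 87.4, 66.9 and 105 CPM in aged ST-HSC and 337, 739, 339.7 and 651 in aged MPP (-2.62 ± 0.21), against -0.37 in young mice (-2.26, adjusted p = 8e-04). Derl3, of endoplasmic reticulum degradation, was at 3.5, 2.46, 2.4 and 4.07 CPM against 26.2, 56.8, 25.8 and 95.3 (-4.01 ± 0.38), and -0.87 in young mice (-3.15, adjusted p = 0.0063). MPP libraries 2 and 4 were the highest for all 3 genes. Xbp1 and Derl3 are also on the plasma cell marker list. The Derl3 age difference was not called in a fit of these 4 groups alone (adjusted p = 0.05), with limma-voom (0.35) or without MPP libraries 2 and 4 (0.058). Ell2, an elongation factor of antibody-secreting cells, was at 25.3, 19.2, 22.4 and 25.5 CPM against 28.2, 39.9, 24.4 and 68.1 (age difference -1.9, adjusted p = 0.0063), and its aged difference of -0.79 was lost without aged MPP library 4 (-0.42, adjusted p = 0.09).

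Tmem154 was at 21.2, 23.6, 26.2 and 22.7 CPM in aged ST-HSC and 58.9, 78, 40.8 and 90.4 in aged MPP (-1.52 ± 0.17), and 0.46 in young mice (age difference -1.97, adjusted p = 0.00018). Trib1, a pseudokinase that limits C/EBP factors, was at 17.4, 20.5, 16.8 and 11.6 CPM against 32.6, 61.8, 37.3 and 56.4 (-1.51 ± 0.19), and 0.47 in young mice (-1.97, adjusted p = 0.00086). Trp53inp1 was also among the 40 (-1.79, adjusted p = 0.037), and its age difference was not followed singly under other fits. The aged ST-HSC and MPP ranges did not overlap for Tmem154 and Trib1, and MPP libraries 2 and 4 were again highest. Those libraries had the largest plasma cell marker shares, 0.39 and 0.933%, and the part of those markers in the age differences was not tested. Without both libraries 13 genes had a larger and 15 a smaller difference in aged mice, and 24 a smaller one without aged MPP library 4 alone. The 40 became 26 without young MPP library 2 or 3. No S phase, mitotic, lymphoid, oxidative phosphorylation or MHC class II member passed the test of the age difference in edgeR. Of these 233 members 15 had an unadjusted p under 0.05. For MHC class II 10 of 11 members had a negative age difference, 6 with an unadjusted p under 0.05, and DESeq2 called 4 and limma-voom 1 of them. Neither tool called a member of the other 4 lists, in which 59 of 60 mitotic genes had a positive sign and 60 of 75 respiratory genes a negative one.

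**Figure D5:**
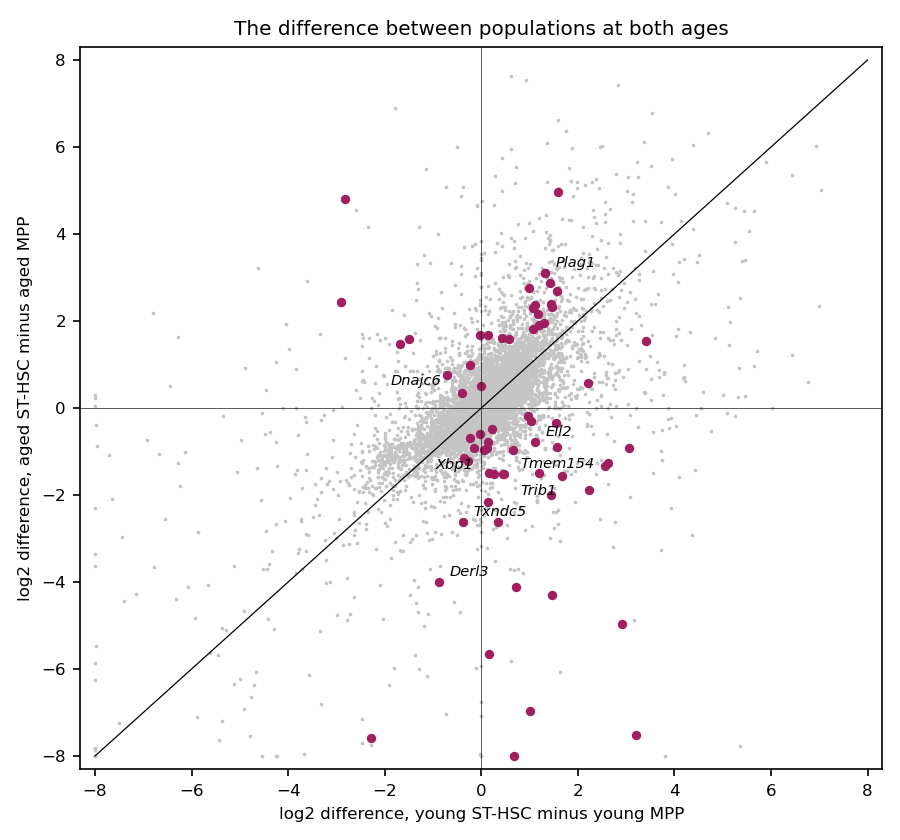
Log2 difference of ST-HSC minus MPP in aged mice (vertical axis) against young mice (horizontal axis) for each tested gene, with values beyond 8 drawn at the limit and a line of equal differences. Dark points are the 66 genes whose difference depended on age; Plag1 lies above the line, and Xbp1, Txndc5, Derl3, Tmem154, Trib1 and Ell2 below it.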

How the data were processed

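Bulk RNA-seq was used on sorted ST-HSC and MPP of aged and young mice, with 4 libraries per group. Per the labels' protocols, cDNA was primed with not-so-random primers and libraries were made with a Nextera XT kit, which marks no strand and adds no molecular identifiers, so overlapping and antisense genes cannot be separated. Per the submitters' processing notes, the authors used Trim Galore, HISAT2 and featureCounts with build mm10. Their versions, the annotation and the strandedness of the counting were not given in the sources used here. What the authors deposited are unnormalized read counts per gene (the values are whole numbers with unequal totals), in which 27 symbols had been turned into dates.

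Differences in counts were tested by edgeR 4.0.16 under R 4.3.3. Genes passing filterByExpr (14205) were scaled with TMM factors and fitted with a robust quasi-likelihood model to all 24 libraries in 6 groups (18 residual degrees of freedom, common dispersion 0.0454). Tests are two-sided, with Benjamini-Hochberg adjustment over all tested genes and a threshold of 0.05. CPM values use TMM-scaled library sizes. Log2 differences are ST-HSC minus MPP with their standard error. The age difference is the aged minus the young difference. Total counts of 7307151 or more per library limit the precision for genes of few counts. Replicates differed by 10.5 to 26.8 in chi-square per gene, so none was a repeated library.

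The members and lists were chosen with earlier results of these data known. Named genes are the 6 genes listed as sort genes, the 12 higher and 12 lower genes of largest change with an adjusted p under 0.05, at least 10 CPM and no overlap, up to 5 members of smallest p per list, and 8 genes of smallest p for the age difference. The list of sort genes includes Flt3 and Cd34, which the gate does not name. Some genes that this rule takes are not reported here. Other list members are named where they help describe the list. Alternatives were other fits (DESeq2 1.42.0, limma-voom with limma 3.58.1, a replicate block, only the groups compared), scalings, filters, thinned counts, and omitted genes or libraries. Coordinates and promoters are from RefSeq (GRCm38.p6, the assembly that mm10 names), with 1 promoter taken per gene. Of 14205 tested genes 10647 had a promoter sequence. Marker lists were compared with exact permutation tests over libraries.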

Additional observations from a re-analysis of the deposited data

Results flagged for a closer look

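In 420 groups of 4 values 34 had 1 library apart from the other 3 (a gap to the nearest value above the Dixon limit), where chance gives about 1 in 20. Of these, 9 were in aged MPP library 4, 9 in aged ST-HSC library 4, 5 in ST-HSC library 3, 4 in MPP library 3, 3 each in ST-HSC library 2 and MPP library 1, and 1 in ST-HSC library 1.

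ST-HSC library 4 stood apart for Ly6d (0.61 CPM), Cacna1e (2.34), Chst1 (3.05), Pou2af1 (8.64), Slpi (1.02), Fcrla (3.97), Rfc5 (72.8) and Jchain (328), and for the plasma cell marker share (0.0432%). MPP library 4 did so for Slpi (188 CPM), Sult1a1 (14.3), Rpl12 (821), Atp5a1 (835), Cox6a1 (167), Slc2a3 (97.6), Shmt2 (142) and Sdf2l1 (121), and for the monocyte and macrophage marker share (0.135%). Among the other ST-HSC libraries, library 3 stood apart for Irf4 (0 CPM), Prim2 (19.1), Mrpl10 (44.8), Psat1 (59.5) and Cdk1 (28.6), library 2 for Xbp1 (75.8), Ctsz (40.6) and Sdf2l1 (29.6), and library 1 for Cx3cr1 (0.159). MPP library 3 was apart for Mecom (61.5 CPM), Smc4 (159), Mrpl13 (17) and Itgal (389), and MPP library 1 for Cd34 (887), Oasl2 (60) and Hoxa10 (11.7).

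For 16 named genes the ST-HSC minus MPP difference depended on age by the test of the difference itself. The aged minus young values were positive for Plag1 (1.78), Klf12 (1.44), Fhl1 (1.25), Prdm16 (0.95), Mmrn1 (0.86), Hlf (0.74), Dnajc6 (0.74) and Mecom (0.66). They were negative for Socs2 (-3.24), Derl3 (-3.15), Txndc5 (-2.26), Tmem154 (-1.97), Trib1 (-1.97), Ell2 (-1.9), Trp53inp1 (-1.79) and Xbp1 (-1.67).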

How the results depend on the processing

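None of the 4244 genes called between aged ST-HSC and aged MPP was called in the opposite direction under the 20 alternatives, and 57.4 to 99.9% stayed called. Calls higher in ST-HSC fell from 2196 to 1427 without ST-HSC libraries 2 and 3 together and to 1404 without MPP libraries 2 and 4 together, and calls lower from 2048 to 1133 and 1284. The second pair was chosen after seeing the data. Age differences (26 larger, 40 smaller) numbered 13 and 12 with only the groups compared, 76 and 103 with DESeq2, 8 and 10 with limma-voom, 11 and 12 without the ST-HSC pair, 13 and 15 without the MPP pair, and 20 to 36 and 24 to 58 with 1 library left out. Among lists, mitotic genes lower (23) numbered 55 with only the groups compared and with limma-voom, 15 with upper-quartile scaling, 14 with no count filter, 4 without the ST-HSC pair, 10 without the MPP pair, and 8 to 19 with 1 library left out. Without the ST-HSC pair S phase genes lower numbered 15 in place of 40, respiratory genes 20 in place of 52 and MHC class II genes 2 in place of 6. Without the MPP pair lymphoid genes lower numbered 15 in place of 24, respiratory genes 23 and MHC class II genes 2. With 1 library left out respiratory genes numbered 34 to 54 and MHC class II genes 3 to 7. Myeloid genes lower numbered 14 with limma-voom in place of 8. Fewer libraries were fitted where some were left out, and otherwise the cause was not tested. Slamf1 was -0.1 with limma-voom in place of 0.35 and ranged from -0.92 (without ST-HSC library 4) to 0.81 with 1 library left out, and Ly6a was 0.26 without the MPP pair in place of -0.46, none of them called. Depth limits genes of few counts, such as Ly6d.

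No label says that library numbers mark a mouse, and the aged correlations of deviations over all tested genes for same-numbered pairs 1 to 4 were 0.13, 0.01, 0.07 and 0.13, and the young ones -0.04 to 0.07, so the numbers were not used as pairs. Whether they mark shared mice is not known. With the replicate block 4354 genes were called, 2212 higher and 2142 lower, with 95.1% of the 4244 among them. As a hint from the data, over 8376 genes of at least 16 CPM the aged correlations were 0.23, 0.11, 0.13 and 0.17, and each aged ST-HSC library correlated best with its own number. The young ones were 0.1, 0.01, 0.09 and -0.09. Young ST-HSC libraries 2 and 4 correlated best with young MPP libraries 4 and 2 (0.07 and 0.13).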

Other observations

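The 4 marker lists not described above gave these shares of counts in aged ST-HSC and aged MPP. T and NK cell markers took 0.00268 to 0.00856% and 0.00579 to 0.0175%, with overlap. Dendritic cell markers took 0.0595 to 0.0696% and 0.0799 to 0.0929%, and endothelial and stromal markers 0.0407 to 0.0455% and 0.0539 to 0.0648%, both without overlap (exact permutation tests, two-sided, p = 0.057 after adjustment over 10 lists). Most dendritic counts came from Flt3, which is also used to mark lymphoid-primed MPP, and Tcf4 (5491 and 2542 in MPP library 1). Most endothelial and stromal counts came from Pecam1, Pdgfrb and Egfl7 (1853, 2279 and 1050 in ST-HSC library 1). Col3a1 and Lum were at 0 in all libraries of both groups. Whether these shares reflect such cells was not tested. Markers of mast cells, basophils and eosinophils took 0.0254 to 0.0306% and 0.0229 to 0.0747%, with overlap.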
